A study of Drosophila melanogaster with 20 samples.

Results

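Brains dissected from mated Drosophila melanogaster females 24 h after mating were compared directly with brains of virgin females of the same age on 4 2-colour oligonucleotide arrays. The probes described are the 6349 of 15744 on the array that had a log2 ratio of mated over virgin in each dye orientation, and a positive value means more transcript in the mated brain. Of these, 5078 had a value on all 4 arrays, 883 on 3 and 388 on 2, and 149 further probes with at least 2 values in 1 orientation were left out. The females were Canton S, 5 days old when mated, and the males carried w; P[UAS-dj-GFP], which marks sperm with green fluorescence. Mating took place for 2 h in groups of 10 females with 20 males, and only females with a strong fluorescent signal in the abdomen were kept as mated. Each sample held 20 brains, freed of other tissue by rinsing, and the RNA was amplified before it was labelled. RNA of mated females carried Cy3 on replicates 1 and 2 and Cy5 on replicates 3 and 4, and virgin RNA carried the other dye. The other 16 arrays of the series compared whole heads at 0-2, 24, 48 and 72 h.

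In the fly, seminal fluid proteins such as sex peptide lower the female's willingness to mate again and raise egg laying for days, and they act in part through sensory neurons that project to the central nervous system. Firing and transmitter release in brain neurons depend on voltage-gated channels, on synaptic proteins such as complexin, and on RNA-binding proteins that shape splicing and translation of neuronal transcripts. Antimicrobial peptides are made mainly by fat body and blood cells under the Toll and Imd pathways, and Turandot proteins are secreted under stress. The fat body of the head, muscle, eye and antenna lie close to the brain and have marker genes of their own. In RNA from a whole organ, fewer cells of a type and less RNA per cell cannot be told apart. Only ratios were deposited, so the level of a brain, eye or fat body marker in these samples cannot be read from them.

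The arrays held values for 5840 to 6399 probes each. Across the 5078 probes with values on all 4 arrays, arrays of the same dye orientation correlated at r = 0.63 (replicates 1 and 2) and 0.61 (replicates 3 and 4), and arrays of opposite orientation at r = -0.39 to -0.21. The part of the ratio that turned with the dye had a larger spread than the mean of the 4 arrays (SD 0.34 against 0.24 on the log2 scale), and it exceeded the mean in 66.6% of probes. A gene high on replicates 1 and 2 and low on replicates 3 and 4, or the reverse, thus follows the main pattern of these arrays, and the genes below are given on each array for that reason. Of the probes with 4 values, 390 (7.68%) were higher and 360 (7.09%) lower on all 4 arrays.

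**Figure D1:**
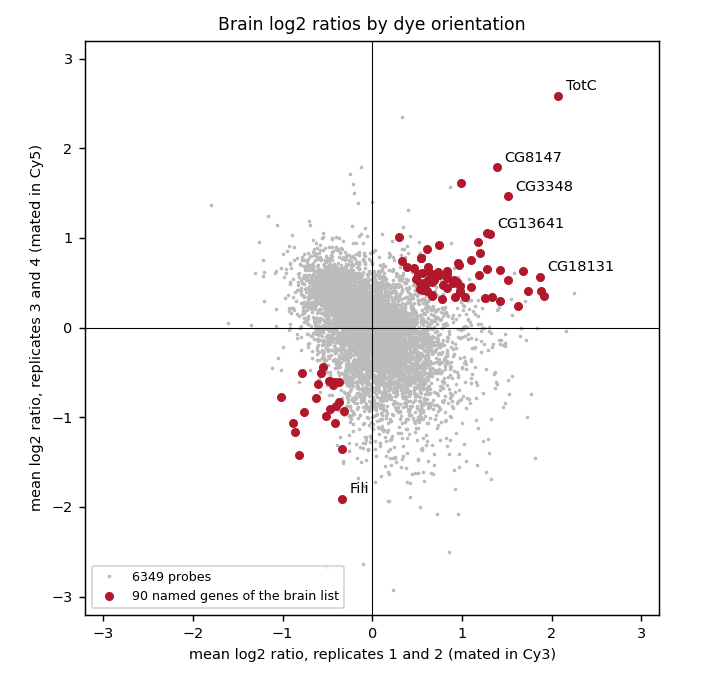
Mean log2 ratio of mated over virgin on replicates 1 and 2 (x axis) against replicates 3 and 4 (y axis) for the 6349 probes in grey and 90 named genes in red. The grey cloud runs from upper left to lower right, and TotC, CG8147, CG3348 and CG13641 lie at the upper right.

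No probe passed limma's moderated test for a mean ratio other than 0 after Benjamini-Hochberg adjustment (0 of 6349, 0%, lowest adjusted p = 0.107). This fit has no dye term, so the part of the ratio that turned with the dye counted as spread between arrays. Before adjustment, p was under 0.05 for 193 probes higher in mated brains (3.04%) and 136 lower (2.14%), together 5.18%. With a term for dye orientation in the fit, which needs at least 3 values, 6 of 5961 probes passed the adjusted test (0.101%), all of them higher, and 474 higher (7.95%) and 558 lower (9.36%) had an unadjusted p under 0.05. The median log2 ratio over all probes was -0.01. A mean above 2-fold was seen for 20 probes higher (0.315%) and 6 lower (0.0945%). Names come from the study's list of 100 brain genes, which was chosen by p on these same 4 arrays. Of these genes, 90 have a value in each orientation, 67 with a mean above and 23 with a mean below 0. On every array with a value 63 were higher and 23 lower, as were 8.38% and 8.55% of all probes. That all 90 have an unadjusted p under 0.05 follows from that choice, and counts over them describe the list. On all 4 arrays 79 of them were measured, with a median range between arrays of 0.79 log2 units.

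The 6 genes that passed with the dye term were CG3348, TotC, CG13641, CG8147, CG18131 and CG10031. CG3348 had log2 ratios of 1.43, 1.60, 1.55 and 1.38 on replicates 1 to 4. The 4 arrays lie close together in both orientations. The mean was 1.49 ± 0.10 (SD, n = 4), a fold of 2.81, with a 95% confidence interval of 1.14 to 1.85 (limma, adjusted p = 0.107, and 0.0136 with the dye term). CG3348 was also the single probe to pass when values on all 4 arrays were required (adjusted p = 0.0498 from limma). TotC, a Turandot gene for a secreted stress protein, had 1.83 and 2.32 on replicates 1 and 2 and 2.58 on replicate 3, with no value on replicate 4. Its mean of 2.25 ± 0.38 (SD, n = 3) was the highest of all named genes, a fold of 4.74 (adjusted p = 0.115, and 0.0169 with the dye term). CG8147, named phu in the reference table and annotated as an alkaline phosphatase, had 1.59, 1.20, 2.21 and 1.37. Replicate 3 was highest, and the lowest array still showed more than a 2-fold excess. The mean was 1.59 ± 0.44 (SD, n = 4), with an adjusted p of 0.165 from limma and 0.0384 with the dye term. CG13641, Srg1 in the reference table, had 1.38, 1.25, 1.00 and 1.09, with a mean of 1.18 ± 0.17 (SD, n = 4, adjusted p = 0.165 from limma, and 0.0169 with the dye term). None of the values of these 4 genes lay at or below 0.

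CG18131 and CG10031 differed more between orientations. CG18131 had 2.05 and 1.69 on replicates 1 and 2 against 0.82 and 0.31 on replicates 3 and 4 (mean 1.22 ± 0.79, SD, n = 4). CG10031, with a Kunitz-type protease inhibitor domain, had 1.73 and 1.52 against 0.18 and 0.30 (mean 0.93 ± 0.80, SD, n = 4). Their adjusted p from limma was 0.937 for both without the dye term, and 0.0462 and 0.0481 with it. CG18132, the neighbour of CG18131 in the genome, had 2.39 and 1.45 against 0.25 and 0.45 (mean 1.13 ± 0.99, SD, n = 4, adjusted p = 0.0709 with the dye term). CG13841 had 2.23, 1.24, 0.70 and 0.11 (mean 1.07 ± 0.90, SD, n = 4, adjusted p = 0.106 with the dye term). In these 4 genes the arrays with mated RNA in Cy3 were all higher than those with mated RNA in Cy5. Over the 90 named genes, 24 were higher by more than 0.5 on the Cy3 arrays than on the Cy5 arrays and 3 were lower by that much. These 90 were chosen by p on these same arrays, and the same count was not made over all probes.

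**Figure D2:**
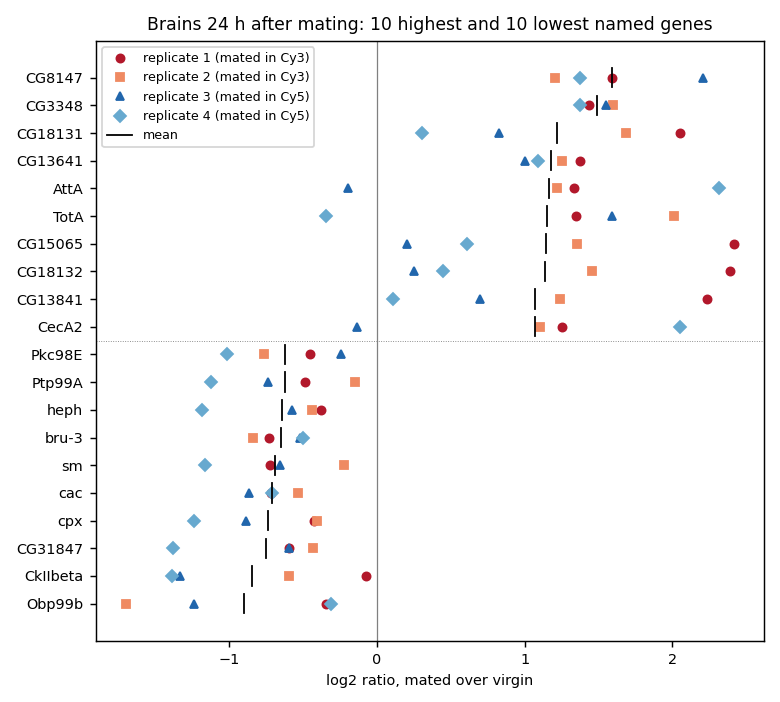
Log2 ratio of mated over virgin on each of the 4 brain arrays for the 10 highest and 10 lowest named genes with values on all arrays, with the mean as a bar. CG3348 and CG13641 have tightly grouped arrays, whereas AttA, TotA and CecA2 each have 1 array below 0.

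Among named ion channel genes the ratios were below 0 on every array that gave a value. The list holds 6 genes, of which 5 were measured and trpl was not named. All 5 came from the brain list, so their shared direction is part of how they were found. Cacophony (cac), the pore-forming subunit of the presynaptic voltage-gated calcium channel, had -0.71, -0.53, -0.86 and -0.71. The mean of -0.71 ± 0.13 (SD, n = 4), which is 1.63-fold lower, had a 95% confidence interval of -1.07 to -0.34 and an unadjusted p of 0.00222 from limma (adjusted p = 0.937, and 0.0709 with the dye term). Ca-beta, the auxiliary calcium channel subunit, had -0.73, -0.40, -0.21 and -0.81 (mean -0.54 ± 0.28, SD, n = 4). Teh1, a homolog of the sodium channel auxiliary subunit TipE, had -0.63, -0.33, -0.44 and -0.76 (mean -0.54 ± 0.19, SD, n = 4). Both were lower in each orientation by a similar amount. Shaker (Sh), a voltage-gated potassium channel, and pHCl, a pH-sensitive chloride channel, gave values on replicates 1 and 3 only. Sh had -0.89 and -1.06, and pHCl had -0.86 and -1.16. With 1 array per orientation, neither could enter the fit with a dye term. In limma's fit their adjusted p was 0.937, as for every ion channel gene of the list. With the dye term, 3 of 3 ion channel genes tested were lower with an unadjusted p under 0.05, and none passed the adjusted test. Over all probes 9.36% were lower at that level, but the 3 genes were chosen by p on these same arrays.

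Genes of synapses and neuronal signalling were measured for 13 of 13. The 7 that the brain list names were below 0 on every array with a value. Complexin (cpx), which clamps and promotes synaptic vesicle fusion, had -0.43 and -0.40 on replicates 1 and 2 and -0.88 and -1.24 on replicates 3 and 4 (mean -0.74 ± 0.40, SD, n = 4, adjusted p = 0.0746 with the dye term). CkIIbeta, the regulatory subunit of casein kinase II, had -0.07, -0.59, -1.33 and -1.39 (mean -0.85 ± 0.63, SD, n = 4). Both genes were lower by more on the Cy5 arrays. Fish-lips (Fili), a leucine-rich repeat protein of the cell surface, had -0.34, -1.33 and -2.49 on replicates 1, 3 and 4. Its mean of -1.39 ± 1.08 (SD, n = 3) was the lowest of the named genes, and replicate 1 gave its only value with mated RNA in Cy3. The kinases Pkc98E and Pka-C1, the receptor tyrosine phosphatase Ptp99A and the nuclear factor dac had means of -0.62, -0.53, -0.62 and -0.54. In dac the arrays were closest, between -0.69 and -0.35.

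The other 6 genes of this list are named from head arrays alone, and none of the 6 had an unadjusted p under 0.05 in limma's fit. The neuropeptide gene sNPF had -0.14, -0.11, -0.63 and -0.57, and the insulin-like peptide Ilp5 had -0.30, -0.82, -0.36 and -0.14. Both were below 0 on all 4 arrays (unadjusted p = 0.0727 and 0.0511 from limma, adjusted p = 0.981 and 0.937). With the dye term their unadjusted p was 0.00797 and 0.014, where 9.36% of all probes were lower with an unadjusted p under 0.05. The tyrosine hydroxylase gene ple, which makes the dopamine precursor, had 0.42 and 0.56 on replicates 1 and 2 and -0.61 and -0.92 on replicates 3 and 4. Dat, an arylalkylamine N-acetyltransferase that inactivates dopamine, had -0.37 and -0.41 against 0.40 and 0.38. In ple and Dat the sign changed with the dye, and the means of -0.14 and 0.00 lay within their spread. Nplp3, a neuropeptide-like precursor, had 1.42, 1.02, 0.26 and -0.28 (mean 0.61, adjusted p = 0.971 from limma). With the dye term, 1 of the 6 genes was higher and 2 were lower with an unadjusted p under 0.05 from limma. Of all probes 7.95% were higher and 9.36% lower at that level. None of the 6 passed after adjustment.

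All 4 RNA-binding proteins of the list were below 0 on all 4 arrays, and all 4 are from the brain list. The CELF-type splicing factor bru-3 had -0.73, -0.84, -0.52 and -0.50, with a mean of -0.65 ± 0.17 (SD, n = 4, unadjusted p = 0.00403 from limma, adjusted p = 0.937, and 0.0869 with the dye term). Bru-3 was the most even of the 4. Orb2, a CPEB protein needed for long-term memory in the fly, had -0.57, -0.16, -0.69 and -0.97. Hephaestus (heph), the fly polypyrimidine tract-binding protein, had -0.37, -0.44, -0.57 and -1.18, and smooth (sm), an hnRNP L-type protein, had -0.72, -0.22, -0.65 and -1.16. In orb2, heph and sm replicate 4 was the lowest array. CG32169, named Rbp6 in the reference table and so an RNA-binding protein too, is outside the list and was picked after its values were seen (mean -0.51 ± 0.23, SD, n = 4). Over all probes, 2.14% were lower with an unadjusted p under 0.05 and 9.36% with the dye term, and these gene groups were drawn from that tail.

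**Figure D3:**
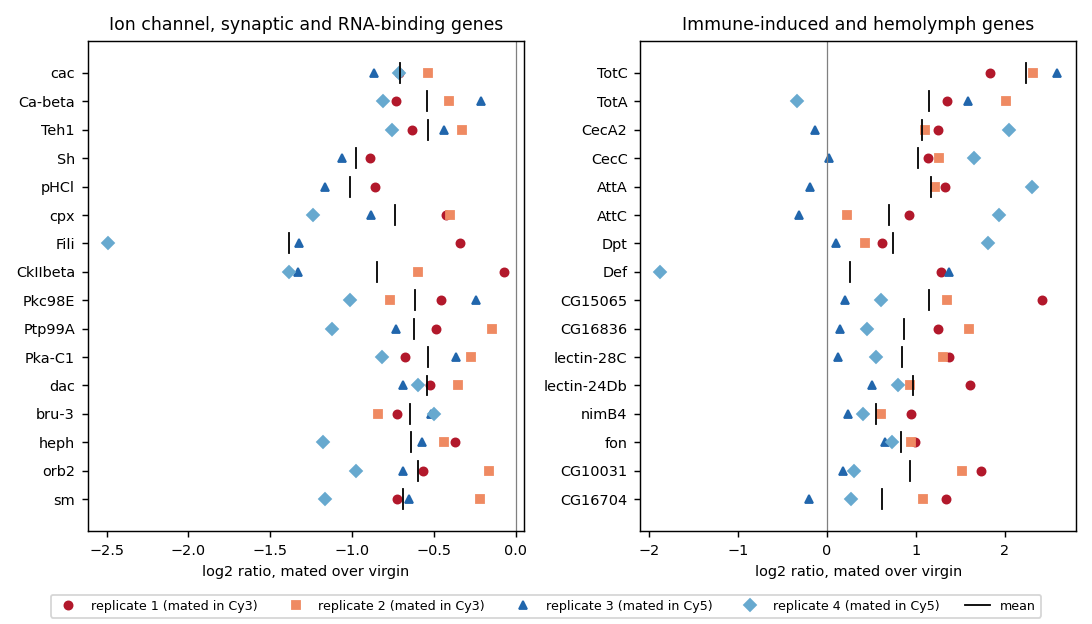
Log2 ratio of mated over virgin on each brain array for ion channel, synaptic and RNA-binding genes (left) and for immune-induced and hemolymph genes (right), with the mean as a bar. All genes drawn on the left were chosen through the brain list, and every value there lies below 0. Genes of the synapse list that are named from head arrays alone are not drawn. On the right, replicate 4 is the highest and replicate 3 the lowest array for CecA2, CecC, AttA, AttC and Dpt.

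Markers of other tissues moved in these comparisons as well. The median of the 4 neuronal markers cac, Sh, cpx and Teh1 was -0.67, -0.40, -0.87 and -0.76 on replicates 1 to 4. The median of 3 muscle markers was 1.04, 0.44, 0.71 and 0.38 on the same arrays, and that of the 4 eye markers measured (Rh4 and trpl were not named) was 1.02, 0.50, 0.49 and 0.53. The 3 antennal markers had medians of 0.84, 0.23, 0.48 and 0.38, and the 3 markers of blood cells and hemolymph had 0.95, 0.61, 0.62 and 0.57. These medians were below 0 for neurons and above 0 for muscle, eye, antenna and blood on all 4 arrays, and replicate 1 was highest for each of the 4 non-neuronal groups. The 6 fat body markers had medians of 0.34, -1.51, -0.50 and 0.13 and did not share a sign between arrays. Sh, nimB1 and to lacked a value on some arrays, and each median is over the markers with a value on that array. Apart from nimB1, Rh5, Pbprp5 and 5 of the 6 fat body markers, these markers are named through the brain list, so the sign of their medians follows in large part from that choice. No neuronal marker was named from head arrays alone. The 6 synapse and neuronal signalling genes named that way had medians of 0.07, 0.00, -0.49 and -0.28 on replicates 1 to 4. Rh5, the 1 eye marker named from head arrays alone, was not higher (mean -0.02, adjusted p = 0.985 from limma). The part of these markers in the lower neuronal ratios was not tested.

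**Figure D4:**
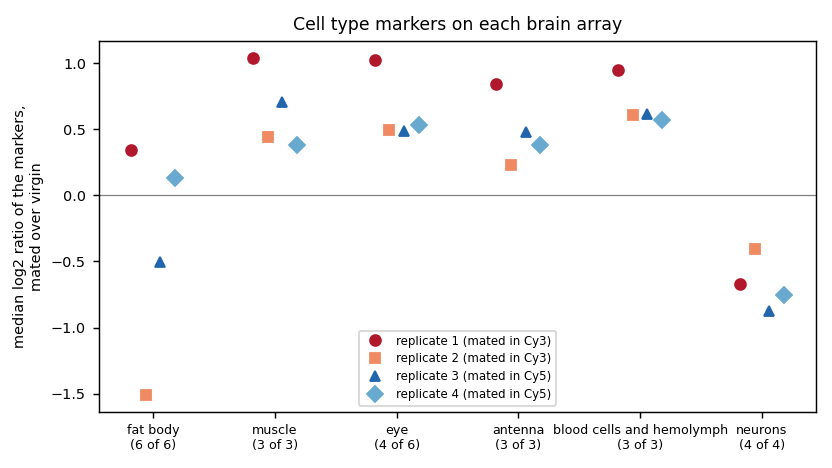
Median log2 ratio of mated over virgin of the markers of 6 tissues or cell types on each brain array, with the number of markers measured of those listed below each name. Sh, nimB1 and to have no value on some arrays, where the median is over the other markers. Neuronal markers are below 0 and muscle, eye, antennal and blood markers above 0 on all 4 arrays, with replicate 1 highest in those 4 groups. All neuronal and muscle markers, and most eye, antennal and blood markers, are named through the brain list.

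Muscle and actin genes were measured for 4 of 5, all named through the brain list, and Pax lacked a value in each orientation. Act88F, the flight muscle actin, had 1.04, 0.44, 1.23 and 0.61 (mean 0.83 ± 0.37, SD, n = 4). Tropomyosin 1 (Tm1), which binds actin filaments, had 0.72, 0.43, 0.59 and 0.38 (mean 0.53 ± 0.15, SD, n = 4). Both were above 0 in each orientation. Act57B had 1.35, 1.17, 0.71 and -0.04 and jbug, a filamin-type actin crosslinker, had 1.21, 0.38, 0.55 and 0.41. Actins are close in sequence, and a probe for 1 of them may read others. Among eye genes, rdgA, the diacylglycerol kinase of phototransduction, had 2.04 on replicate 1 and 0.80, 0.69 and 0.59 on the others. Gbeta76C, the G protein beta subunit of photoreceptors, had 1.30, 0.65, 0.29 and 0.52, and retinin, a corneal lens protein, had 0.75, 0.34, 1.02 and 0.55. These 3 are from the brain list. Rh5, a blue-sensitive opsin and the 1 measured eye gene outside that list, had 0.08, -0.39, 0.12 and 0.10, with an unadjusted p of 0.9 from limma and 0.856 with the dye term. The odorant-binding proteins Pbprp1 and lush had 1.42, 0.53, 0.41 and 0.37, and 0.84, 0.23, 0.48 and 0.51. PebIII had 1.51 on replicate 1 and 0.40 to 0.52 on the others. In each of these genes except Rh5 the adjusted p from limma was 0.937, and with the dye term between 0.11 and 0.141.

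The immune list had all 17 genes measured, and all 17 had a mean above 0. Of all 6349 probes 3038 had a mean above 0, as did 153 of the 216 genes named from head arrays alone. The brain list names 10 of them, with a median of 1.04, and these were picked by p on the same arrays. The other 7 are named from head arrays alone and had a median of 0.32. Of these 7, 2 were higher on every array with a value, beside 8.38% of all probes. CecC, CG15065 and CG16836 are on both kinds of list. Attacin-A (AttA), an antibacterial peptide, had 1.33, 1.22, -0.19 and 2.31 (mean 1.17 ± 1.03, SD, n = 4). Cecropin A2 (CecA2) had 1.25, 1.10, -0.13 and 2.05, and Cecropin C (CecC), encoded beside it, had 1.14, 1.26, 0.02 and 1.65. In all 3 replicate 4 was the highest array and replicate 3 the lowest, and these 2 arrays share a dye orientation. AttC and the diptericin gene Dpt, both named from head arrays alone, had 0.92, 0.23, -0.31 and 1.94, and 0.62, 0.43, 0.10 and 1.81. They gave the same picture of a high replicate 4 and a low replicate 3. Defensin (Def) went the other way, with 1.29 and 1.37 on replicates 1 and 3 and -1.88 on replicate 4. TotA followed Def on replicate 4, with 1.35, 2.01, 1.59 and -0.34. The SD between arrays of these 7 genes ran from 0.70 (CecC) to 1.85 (Def), and the adjusted p from limma was 0.937 or above for all of them. Cecropins and attacins have close paralogs that a probe may also read.

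Other immune genes differed in size between the dye orientations. CG15065 and CG16836, 2 members of the Bomanin family next to each other in the genome (BomS5 and BomT2 in the reference table), had 2.42 and 1.36 against 0.21 and 0.61, and 1.25 and 1.60 against 0.15 and 0.46. The C-type lectin genes lectin-28C and lectin-24Db had 1.37, 1.31, 0.13 and 0.56, and 1.61, 0.94, 0.51 and 0.80. All 4 were above 0 on all 4 arrays and higher on each Cy3 array than on each Cy5 array. Their adjusted p with the dye term was between 0.0709 and 0.0892. Of the 7 immune genes named from head arrays alone, Dpt and nimB1, a nimrod-family gene of blood cells, had an unadjusted p under 0.05 (0.0318 and 0.0198 from limma, adjusted p = 0.937 for both), beside 3.04% of all probes higher. PGRP-SC2, a peptidoglycan-degrading amidase, had -0.34, -0.30, 0.66 and 1.28. With the dye term 3 of the 7 were higher with an unadjusted p under 0.05, beside 7.95% of all probes, and none passed after adjustment. Diedel (CG11501), a secreted immune modulator, and the antibacterial peptide gene Listericin (CG9080) are outside the list and were picked after their values were seen. CG11501 had 0.58, 0.66, 1.57 and 0.17, and CG9080 had 0.68, 0.39, 0.49 and 0.38.

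Genes of clotting, protease inhibitors and proteases were measured for 9 of 9. Fondue (fon), a hemolymph clotting factor, had 0.99, 0.95, 0.66 and 0.74, with a mean of 0.83 ± 0.16 (SD, n = 4), a fold of 1.78, and a 95% confidence interval of 0.47 to 1.20. Its arrays did not differ in sign and little in size (unadjusted p = 0.000929 from limma, adjusted p = 0.937, and 0.0534 with the dye term). The Kunitz-type inhibitor CG16712, IM33 in the reference table, had 0.79, 0.55, 0.34 and 0.68. CG16704, of the same family and named from head arrays alone, had 1.34, 1.09, -0.20 and 0.27. The serine peptidases CG11842 and CG11841 had 0.83, 0.56 and 0.56 on replicates 2 to 4, and 0.59, 0.15, 0.38 and 0.62. Ance-4, of the angiotensin-converting enzyme family, had 0.99, 0.80, 0.54 and 0.46. Over the list, 6 genes were higher with an unadjusted p under 0.05. For the 5 of them from the brain list this follows from the choice by p on these same arrays. Of the 4 named from head arrays alone, 1 was higher at that level, beside 3.04% of all probes. Their lowest mean was -0.08. With the dye term 3 of the 4 were higher with an unadjusted p under 0.05, beside 7.95% of all probes. None of the 4 passed after adjustment.

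Enzymes of amino acid, one-carbon and nucleotide metabolism were measured for 19 of 22. The 6 from the brain list were higher on every array with a value. Nmdmc, the methylenetetrahydrofolate dehydrogenase of mitochondria, had 0.59, 0.67, 0.62 and 0.63. Its range was the narrowest of the named genes with 4 values and the only one under 0.1 in the brain list. Its mean of 0.63 ± 0.03 (SD, n = 4), a fold of 1.54, had a 95% confidence interval of 0.28 to 0.97 (unadjusted p = 0.00343 from limma, adjusted p = 0.937, and 0.0892 with the dye term). CG34424, Mthfs in the reference table and so an enzyme of folate metabolism too, is outside the list and was picked after its values were seen (0.70, 0.40, 0.52 and 1.04). Ahcy13, adenosylhomocysteinase, had 0.74, 0.59, 0.26 and 0.94. CG7470, named P5CS in the reference table for pyrroline-5-carboxylate synthase, had 0.80, 0.31, 0.42 and 0.80. Homogentisate dioxygenase (hgo), of tyrosine breakdown, had 0.62, 0.62 and 0.67 on replicates 1, 2 and 4. The pyrimidine enzyme r-l had 0.45, 0.22, 0.68 and 0.80. CG1628 had 0.85, 0.61, 0.85 and 0.39. In Nmdmc, CG34424, Ahcy13 and CG7470 the values of the Cy3 and Cy5 arrays overlapped, and in r-l both Cy5 arrays were higher. On head lists are 14 of the measured enzymes, Nmdmc among them, and they had a median of 0.18. Nmdmc, also chosen by p on these brain arrays, alone of the 14 had an unadjusted p under 0.05 in limma's fit. Of all probes 3.04% were higher at that level. With the dye term 3 of the 14 were higher, Nmdmc among them, beside 7.95% of all probes. The other 2 were the serine hydroxymethyltransferase gene CG3011 (0.66, 0.35, 0.01 and 0.62) and CG3999 (0.98, 0.22, -0.12 and 0.82).

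Sugar metabolism genes (7 of 8 measured, all named from head arrays alone) had means between 0.08 and 0.28, and none had an unadjusted p under 0.05 in either fit. Lipid metabolism genes were measured for 8 of 8, and 1 had an unadjusted p under 0.05 from limma. This was Lsd-1, a perilipin of lipid droplets, with 0.74, 0.48, 0.20 and 0.63. Lsd-1 is from the brain list, so its p follows from that choice. None of the 7 lipid genes named from head arrays alone had an unadjusted p under 0.05 from limma, beside 5.18% of all probes. Genes of the nucleolus and ribosome were measured for 8 of 9. The elongation factor gene Ef1alpha48D, from the brain list, had 0.76, 0.57, 0.49 and 0.25, and none of the 7 from head arrays had an unadjusted p under 0.05. In the fit with the dye term 4 of these 7 were higher at that level, beside 7.95% of all probes. Of 6 heat shock genes, DnaJ-1 alone had a value in each orientation, and it had no p under 0.05.

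Fat body genes differed widely between arrays. Larval serum protein 1 beta (Lsp1beta), a storage protein, had 0.79, -2.75, -1.92 and 0.36. Larval serum protein 2 (Lsp2) had -0.72, -1.99, -0.43 and 0.48. Obp99a had 0.34, -1.32, -0.17 and 0.20, and Obp99b had -0.34, -1.69, -1.24 and -0.31. Replicate 2 was the lowest array for these 4 genes, and replicates 1 and 4 were near or above 0 in most of them. Obp99b, from the brain list, was the lowest of the named genes with 4 values (mean -0.90 ± 0.68, SD, n = 4, unadjusted p = 0.0105 from limma, adjusted p = 0.937, and 0.155 with the dye term). For Lsp1beta the mean of -0.88 came with an SD of 1.72 (adjusted p = 1 from limma). The feeding-related secreted factors fit and takeout (to) had 0.48, -0.21, -0.58 and 0.06, and -0.40, 0.02 and -0.56 on replicates 2 to 4. Of the 8 genes of the list, Lsd-1 was higher and Obp99b lower with an unadjusted p under 0.05, beside 3.04% and 2.14% of all probes. Both are from the brain list, so this follows from that choice, and neither passed the adjusted test. None of the 6 named from head arrays alone had an unadjusted p under 0.05 from limma.

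The head lists of the study were chosen on head arrays. Of 275 genes named from them, 228 had a value in each orientation in brains, and 12 of these are also on the brain list. Of the 228, 23 were higher and 2 lower with an unadjusted p under 0.05 (10.96%, beside 5.18% of all probes), and none passed the adjusted test. A dye term left 220 of them, 51 higher and 9 lower at that level (27.3%, beside 17.3%), and 3 passed after adjustment. The 12 shared genes account for 12 of the 25 and for all 3. Without them 216 genes remain, with a median log2 ratio of 0.10, of which 12 were higher and 1 lower with an unadjusted p under 0.05 (6.02%). That share is low by construction, since the brain list took out genes by p on these same arrays. Of the 208 that could be fitted with the dye term, 40 were higher and 8 lower (23.1%). Among these genes, aldehyde dehydrogenase (Aldh), with 0.70, 0.39, 0.20 and 0.56, and CG15096, with 0.72, 0.40, 0.42 and 0.35, were above 0 on all 4 arrays. CG11314, Npc2g in the reference table, had 0.60, 0.60 and 0.54 on replicates 2 to 4. The 1 lower gene was the chromatin protein corto, with -0.55, -0.06, -0.31 and -1.14. Without replicate 1, 7 of 214 genes named from head arrays alone had an unadjusted p under 0.05. Of all 6118 probes in that fit, 93 were higher and 87 lower at that level.

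Whole heads at 24 h after mating were compared with brains in 1 fit of the 8 arrays over 1891 probes with a value in each orientation in both tissues, limited to the part of the print where a row holds the same gene in both experiments. The tissues share no samples, but head RNA was labelled without amplification, so tissue and labelling cannot be told apart. The ratio was higher in brain than in head for 5 probes after adjustment (0.264%), and lower for 0. At an unadjusted p under 0.05 the brain was higher for 122 (6.45%) and lower for 49 (2.59%), together 9.04%. For Nmdmc the 3 head arrays with a value had -1.05, -0.70 and -1.74, all below 0, where all 4 brain arrays were above 0. The difference of 1.79 ± 0.29 (SE) had an adjusted p of 0.029 from limma. Lsp2 had -3.71, -4.42 and -4.49 in heads, below every brain array, and differed by 3.54 ± 0.49 (SE, adjusted p = 0.029 from limma). The phosphoserine phosphatase gene aay, the purine enzyme gene CG11089 and the short-chain dehydrogenase gene CG10962 had head means of -1.46, -1.30 and -2.19 and brain means of 0.31, 0.43 and 0.10, and differed by 1.77, 1.73 and 2.29 (adjusted p = 0.029 from limma for each). Each of these 5 had its only head value with mated RNA in Cy3 on replicate 1. Without head replicate 1 these 5 could not be tested, and none of the 376 probes left passed. No probe passed without head replicate 3 or 4, without brain replicate 1, or with all arrays scaled to 1 spread, and 9 passed without head replicate 2.

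CG3348 and CG8147 were high in heads too. CG3348 had 1.51, 2.27 and 1.72 in heads at 24 h, and CG8147 had 2.28, 0.62 and 3.50. The brain minus head difference was -0.34 for CG3348 (95% confidence interval -0.93 to 0.24) and -0.54 for CG8147 (-1.76 to 0.68), and both intervals hold differences of either sign. The ion channel genes could be compared for Sh alone (-1.08, adjusted p = 0.546 from limma). CG34424 had -0.49, -0.28 and -0.35 in heads, and the difference of 1.04 did not pass (adjusted p = 0.127 from limma).

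**Figure D5:**
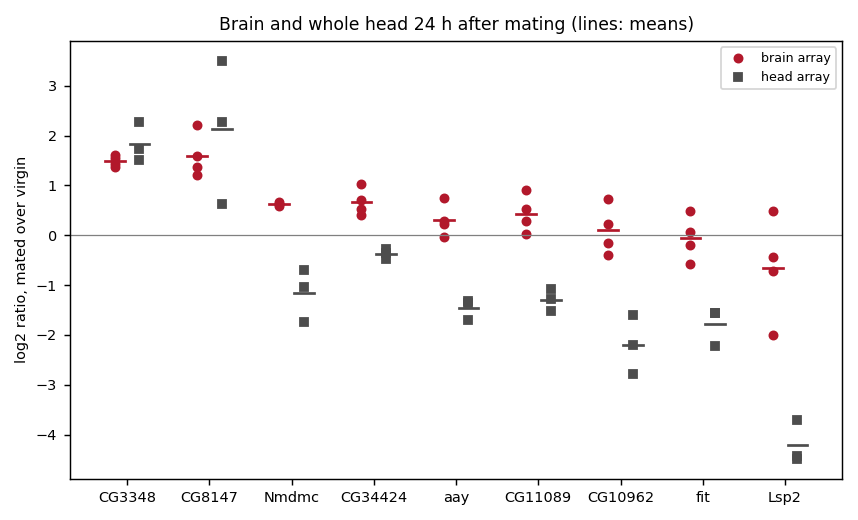
Log2 ratio of mated over virgin 24 h after mating on each brain array (circles) and head array (squares) for 9 genes, with the mean as a line. CG3348 and CG8147 overlap between tissues, and for Nmdmc, CG34424, aay, CG11089, CG10962, fit and Lsp2 every head array lies below every brain array.

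The other 10 genes of the study's brain list had 2 values in a single dye orientation and so are outside the rule. CG10638, CG5780, CG6637, dre4 and mael gave values on replicates 3 and 4 only, and CG13908, CG31302, CG32830, Tsp42Eq and insc on replicates 1 and 2 only. Their means ran from -1.11 (CG10638) to 1.29 (insc, an adaptor of spindle orientation in neuroblasts). The dye swap cannot average out a dye bias in any of them.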

How the data were processed

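Each array compared 20 brains of mated with 20 brains of virgin females, as independent samples, with a dye swap. The values are the authors' log2 ratios, mated over virgin, after their own normalization and turned for the swap. The submitters' processing notes name limma. How the slides were scanned, how ratios were normalized and why a cell is empty: not given in the sources used here. Of 15776 rows, 32 controls were left out. The table names no genes. Rows were named by matching the mean ratio (relative tolerance 2e-05) and p (0.0001) of the study's lists, which are not used for any value, to a row: 100 of 100 brain entries matched, and 99 have a symbol in RefSeq's gene table (Release 6). Head lists named genes on plates 2 to 41 (48 and 72 h) or 2 to 30 (0-2 and 24 h), where a row holds the same gene.

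Each probe was tested for a mean other than 0 with limma 3.58.1 (lmFit, eBayes, R 4.3.3) and Benjamini-Hochberg adjustment over all probes, and brain against head in the same way over plates 2 to 30. The code was tested on simulated data with 200 changed probes. The text names the 10 highest and 10 lowest genes with 4 values, the members of the gene lists, and CG3348, CG8147, TotC and CG13641. Members, names and lists were chosen with earlier results of these data known. Nothing was known of depth, and the 4 arrays limit the precision. The p-values rest on the spread between these arrays, which limma draws toward a value shared by all probes tested. Plots were drawn in matplotlib 3.10.9, and other steps ran in pandas 2.3.3 under Python 3.11.15. Alternatives were a dye term, values on all arrays or in any orientation, centring, scaling, robust eBayes, all 20 arrays in 1 fit, a replicate block for brain against head, and each array left out.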

Additional observations from a re-analysis of the deposited data

Results flagged for a closer look

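In 106 genes with values on all 4 brain arrays, 6 had an array far from the other 3. Replicate 1 stood apart for rdgA (2.04), PebIII (1.51), msta (1.50) and Pbprp1 (1.42), each time as the highest array, replicate 4 for CG31847 (-1.38) as the lowest, and replicate 2 for Rh5 (-0.39) as the lowest. Chance alone gives about 1 such array in 20 groups. The other 3 arrays lay between 0.59 and 0.80 for rdgA, 0.40 and 0.52 for PebIII, 0.40 and 0.55 for msta, 0.37 and 0.53 for Pbprp1, -0.59 and -0.43 for CG31847, and 0.08 and 0.12 for Rh5.

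The response to mating differed between brain and whole head at 24 h by limma's test of the difference for 5 genes. Brain minus head was 3.54 for Lsp2, 2.29 for CG10962, 1.79 for Nmdmc, 1.77 for aay and 1.73 for CG11089 on the log2 scale (adjusted p = 0.029 for each). All 5 were lower in heads on the 3 arrays with a value, and in brains only Nmdmc and CG11089 were above 0 on all 4 arrays.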

How the results depend on the processing

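The count of probes past the adjusted test was 0 under every alternative except 1 with values on all 4 arrays and 6 with the dye term (329 at an unadjusted p under 0.05), and these are also the counts among the 90 named genes. With the dye term 474 probes were higher and 558 lower at an unadjusted p under 0.05. Leaving out 1 array gave 0 adjusted, 93 to 189 higher and 58 to 210 lower: without replicate 1 these were 93 and 87, without replicate 2 127 and 210, without replicate 3 157 and 58, and without replicate 4 189 and 66. Among genes named from head arrays alone, 13 had an unadjusted p under 0.05, and 25 of 228 when those also on the brain list were included, a choice made after seeing the data. The count was 48 with the dye term, 23 of 176 with all 20 arrays in 1 fit, and 7 to 16 without 1 array. Of all 4694 probes in the fit of 20 arrays, 189 were higher and 168 lower at that level. Of brain against head, 1 probe (Lsp2) passed with the replicate block and 0 with arrays scaled, and 0 to 9 without 1 array (36 to 164 unadjusted, the lowest without head replicate 1, which left 376 probes). Brain and head arrays of equal replicate number correlated at r = -0.09 to 0.17 over 130 probes, and those of unequal number at -0.21 to 0.18. A pairing by number was thus neither shown nor excluded. Of 123 genes followed, 7 changed sign in some setting. Leaving out 1 array moved the mean from -0.11 to 0.27 for CG10962, -0.13 to 0.14 for Dat, -0.30 to 1.33 for Def, -0.43 to 0.12 for Obp99a, -0.071 to 0.10 for Rh5, -0.24 to 0.11 for fit and -0.37 to 0.12 for ple, and with arrays scaled Dat was at -0.012. The cause was not tested.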
